A study of Mus musculus with 2 samples.

Results

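The genes described here are 41 genes of DNA replication and S phase. They were chosen by name, as members of the replication machinery and of the switch into S phase, and every gene probe for them on the array was kept. They had 57 of the 41174 gene probes, and all 41 were among the 27666 genes named on the array. Testing was limited to probes that each array found well above background in 1 or both channels. Of the 57 probes 52 qualified, and each of the 41 genes had at least 1 of them. All 52 were well above background in both channels on both arrays. The 5 probes that were not tested were extra probes of Mcm4, Pole, Prim2, Rrm1 and Tyms.

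Cells copy their DNA once per division. In G1 the origin recognition complex, Cdc6 and Cdt1 load the Mcm helicase onto origins. Cdc45 and the GINS complex then switch it on, and polymerases with a sliding clamp copy both strands. Many of these genes are switched on together by E2F transcription factors as cyclin E opens S phase, so their summed messenger RNA is commonly read as a sign of dividing cells. In bone marrow, large pre-B cells divide, while most immature B cells do not.

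The study compared autoreactive with non-autoreactive immature B cells from mouse bone marrow. The autoreactive cells came from BALB.B mice with the 3-83Igi receptor, a Rag1-/- genotype and the H-2b haplotype. The non-autoreactive cells came from BALB/c mice with 3-83Igi and the H-2d haplotype. 3-83Igi is a pair of knocked-in antigen receptor genes whose product recognises H-2b class I molecules, and Rag1 is needed for further receptor rearrangement. The mice were untreated, and no age is given. Pooled B220+ cells without CD23, CD43 or IgD were sorted on a MoFlo instrument after red cell lysis, and IgM is not listed among the stains. The number of animals in a pool is not given.

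Each of the 2 arrays set 0.5 ug of labelled autoreactive RNA (Cy5) against non-autoreactive RNA (Cy3), so the log2 ratio of autoreactive over non-autoreactive cells is the measurement. Dye, strain, haplotype and the Rag1 genotype followed the groups and cannot be told apart from autoreactivity. The arrays shared 1 slide and 1 scan. The series design speaks of 2 biological replicates per group, but the labels number only the autoreactive samples. Whether the 2 non-autoreactive channels hold 1 or 2 pools is not stated. The p-values measure only the spread between these samples, which may be technical. In bulk samples, fewer cells of a type and less RNA per cell cannot be told apart. A channel had between 54.1% and 57.4% of its spots well above background, none was saturated, and the number of arrays limits the precision. H2-Ea, a class II gene with a deleted promoter in H-2b mice, had log2 channel levels of 8.49 and 8.52 in autoreactive cells, against 13.7 and 13.8 in non-autoreactive cells, and a log2 ratio of -5.24 (limma adjusted p = 0.000187).

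No replication or S phase gene passed the test in either direction. Of the 41, 0 were called higher and 0 lower by limma (p-values adjusted by Benjamini-Hochberg over every probe tested, threshold 0.05). Of all 15102 genes tested, 3.52% were called higher and 2.62% lower. At an unadjusted p under 0.05, 1 of the 41 (Pcna) had a ratio above 0 and 10 had one below 0, against 12% of all genes above and 12.3% below. These 10 were Orc6, Mcm10, Rfc2, Rfc5, Pola1, Pole, Prim1, Rrm2, Tyms and Uhrf1.

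The ratios were small. The brightest probes ran from -0.46 for Orc6 to 0.59 for Pcna, with a median of -0.19, against a median of -0.0019 over all genes tested. The median of the 41 was -0.10 on array 1 and -0.23 on array 2. On both arrays, 23 of the 41 stood below 0 (56.1%, against 35.4% of all genes), 5 stood above 0 (12.2%, against 36.1%), and 13 had opposite signs on the 2 arrays. The direction of the median depends on the normalization. It was below that of all genes with loess and with the deposited ratios. With median centring, which makes no correction for probe brightness, it was above that of all genes. The 95% interval of the log2 ratio lay within 2-fold in either direction for 40 of the 41, the exception being Ccne2, against 91.4% of all genes.

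**Figure D1:**
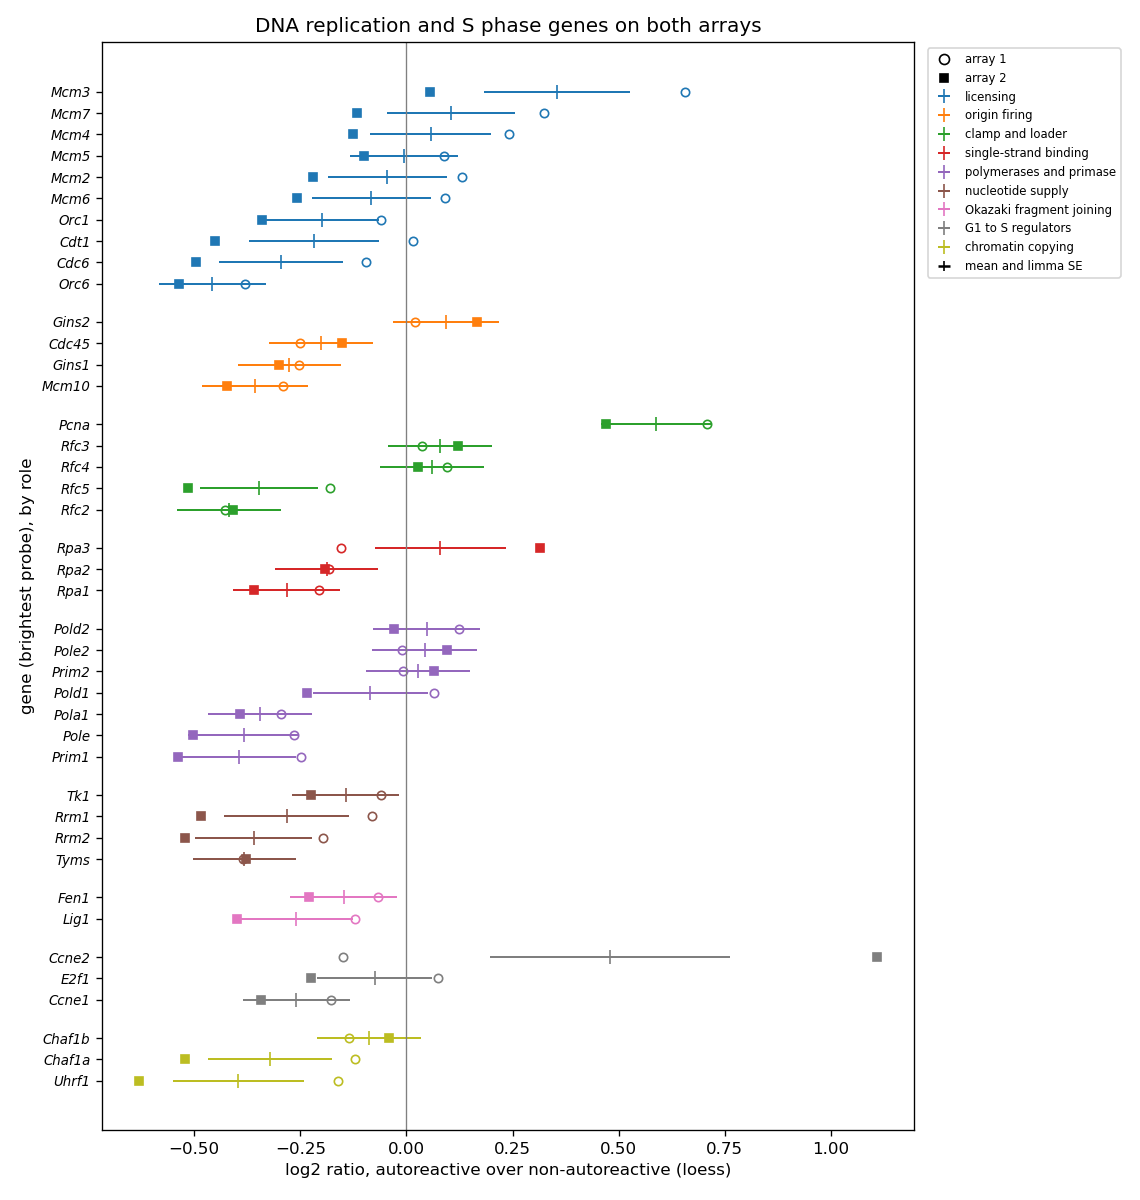
Log2 ratio of autoreactive over non-autoreactive cells for the brightest probe of each of the 41 genes, ordered by role. Open circles are array 1, filled squares array 2, and ticks with lines the mean and its limma standard error. Most points lie between -0.5 and 0.5, and Ccne2 stands at -0.15 on array 1 and 1.11 on array 2.

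One feature that the choice of genes did not use is their promoter sequence. RefSeq windows from 250 bases before to 50 after the annotated start (build GRCm38.p6) were matched for 34 of the 41 genes. The E2F-type spellings TTTCCCGC, TTTCGCGC, TTTGCCGC and TTTGGCGC were searched on both strands, and matches were allowed to overlap. At least 1 was found in 13 of the 34 genes (38.2%, against 2.6% of all genes), and in 32.5% of their 40 windows. Of the 32851 windows of all genes, 2.26% held one, and 3.34% did among windows whose GC content lay between the quartiles of the replication genes. The match lay before the start in 8 genes, whose stretches are given here, each on the strand of its gene and with the motif in capitals, to let the shared letters be compared.

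Orc1 (chr4:108579407-108579453, plus strand): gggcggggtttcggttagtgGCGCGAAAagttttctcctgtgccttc

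Cdc6 (chr11:98907993-98908040, plus strand): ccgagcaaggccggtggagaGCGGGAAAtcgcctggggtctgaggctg

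Mcm5 (chr8:75109336-75109387, plus strand): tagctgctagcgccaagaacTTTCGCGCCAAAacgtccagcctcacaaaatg

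Mcm6 (chr1:128359725-128359835, minus strand): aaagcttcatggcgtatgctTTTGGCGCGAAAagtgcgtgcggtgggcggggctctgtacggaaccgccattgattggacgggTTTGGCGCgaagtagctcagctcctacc

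Mcm7 (chr5:138172021-138172068, minus strand): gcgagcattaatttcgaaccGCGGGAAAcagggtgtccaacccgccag

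Rfc3 (chr5:151651209-151651238, minus strand): ccggaagtgacgtcgcacgcTTTCGCGCtc

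Pola1 (chrX:93632266-93632313, minus strand): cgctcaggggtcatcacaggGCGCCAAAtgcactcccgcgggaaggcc

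Uhrf1 (chr17:56304108-56304155, plus strand): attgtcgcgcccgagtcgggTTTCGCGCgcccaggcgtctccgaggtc

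The capitals of Mcm5 hold 2 overlapping matches, and those of Mcm6 hold 3, of which the first 2 overlap. A match is a description of the letters and not of a bound factor. The 13 genes with a match had a median log2 ratio of -0.08 (range -0.40 to 0.36), the 21 without one a median of -0.20 (range -0.46 to 0.59), and the 7 with no window in the table a median of 0.03. These ranges overlapped. Set against probes of like brightness, as described further on, the medians were -0.28, -0.18 and -0.23, so the order of the groups with and without a match turned round. The same motif was found in 15 of 44 matched genes (34.1%) of another replication list. It was found in 3 of 14 (21.4%) of a list of G1 to S regulators. In a list of G2 and mitosis genes it was found in 1 of 26 (3.85%). Of all 27025 genes with a window, 704 (2.6%) held it. The 3 lists are described further on.

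The licensing genes showed ratios around 0 on array 1 and lower ones on array 2. All 10 had a lower ratio on array 2 than on array 1, as 52.1% of all genes tested did, and their median was 0.09 on array 1 and -0.24 on array 2. Orc6, a subunit of the origin recognition complex, had the lowest ratio of the 41 genes. Its log2 channel levels were 14.22 and 14.03 in autoreactive cells, against 14.60 and 14.56 in non-autoreactive cells. Both autoreactive channels lay below both non-autoreactive ones. Its log2 ratio was -0.46 ± 0.13 (limma SE, n = 2 arrays, 95% interval -0.76 to -0.15, limma adjusted p = 0.102). Orc1, the subunit that joins the complex in G1, stood at -0.06 on array 1 and -0.34 on array 2.

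The loading factors Cdc6 and Cdt1 differed between the arrays. The brightest Cdc6 probe gave -0.10 on array 1 and -0.50 on array 2, while its other probe gave -0.33 and 0.21, so its 2 probes ordered the arrays in opposite ways. Cdt1 stood at 0.02 on array 1 and -0.45 on array 2.

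The 6 subunits of the Mcm2-7 helicase ring had mean ratios from -0.08 to 0.36. Mcm3 had log2 channel levels of 16.30 and 15.72 in autoreactive cells, against 15.65 and 15.66 in non-autoreactive cells. The autoreactive level was the higher on array 1 and about equal on array 2, with ratios of 0.66 and 0.06 and a mean of 0.36 ± 0.17 (limma adjusted p = 0.275). Its other probe gave -0.04 and -0.50, a mean of -0.27, so the sign of Mcm3 depends on the probe. Against probes of like brightness the brightest Mcm3 probe stood at 0.28 and -0.13, and with the deposited ratios its log2 ratio was 0.091.

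Mcm7 had levels of 16.32 and 16.03 in autoreactive cells, against 15.99 and 16.14 in non-autoreactive cells. The channels overlapped, with ratios of 0.33 on array 1 and -0.12 on array 2 (mean 0.10 ± 0.15, limma adjusted p = 0.708). The remaining ring subunits had the same order of arrays. Mcm4 stood at 0.24 on array 1 and -0.13 on array 2. Mcm2 stood at 0.13 and -0.22, Mcm6 at 0.09 and -0.26, and Mcm5 at 0.09 and -0.10.

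The genes that fire licensed origins had a median of -0.24, and 3 of the 4 stood below 0 on both arrays, as 35.4% of all genes did. Mcm10, which brings polymerase to the opened origin, gave -0.29 on array 1 and -0.42 on array 2. Cdc45, the helicase cofactor, gave -0.25 and -0.15. Gins1 gave -0.25 and -0.30 on its brightest probe, and -0.12 and 0.09 on the other. Gins2, from the same complex, stood at 0.02 and 0.17.

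Pcna, the sliding clamp that holds polymerases on DNA, had the highest ratio of the 41. Its log2 channel levels were 16.96 and 16.65 in autoreactive cells, against 16.26 and 16.18 in non-autoreactive cells. Both autoreactive channels lay above both non-autoreactive ones. Array 1 gave a log2 ratio of 0.71 and array 2 one of 0.47, with a mean of 0.59 ± 0.13 (95% interval 0.27 to 0.91, limma adjusted p = 0.0617). The probe was spotted 10 times per array, and the spots used ran from 0.63 to 0.75 on array 1 (SD 0.0359, 9 spots) and from 0.34 to 0.54 on array 2 (SD 0.0667, 10 spots). The spot ranges of the 2 arrays did not overlap. Spots of 1 array share its sample and are not replicates of the cells. Pcna was among the brightest probes, where probes of all genes also had ratios above 0: the 500 probes nearest to it in brightness had medians of 0.49 and 0.46, which placed Pcna 0.21 and 0.01 above them. With the deposited ratios its log2 ratio was 0.12.

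The clamp loader subunits, which place Pcna on DNA, did not share a direction. Rfc2 had levels of 14.96 and 14.98 in autoreactive cells, against 15.39 and 15.39 in non-autoreactive cells. Its ratios of -0.43 and -0.41 were nearly equal on the 2 arrays, with a mean of -0.42 ± 0.12 (limma adjusted p = 0.116). The other Rfc2 probe gave -0.39 and -0.50 (limma adjusted p = 0.107). Rfc5 stood at -0.18 on array 1 and -0.52 on array 2. Rfc3 stood at 0.04 and 0.12, and Rfc4 at 0.10 and 0.03.

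**Figure D2:**
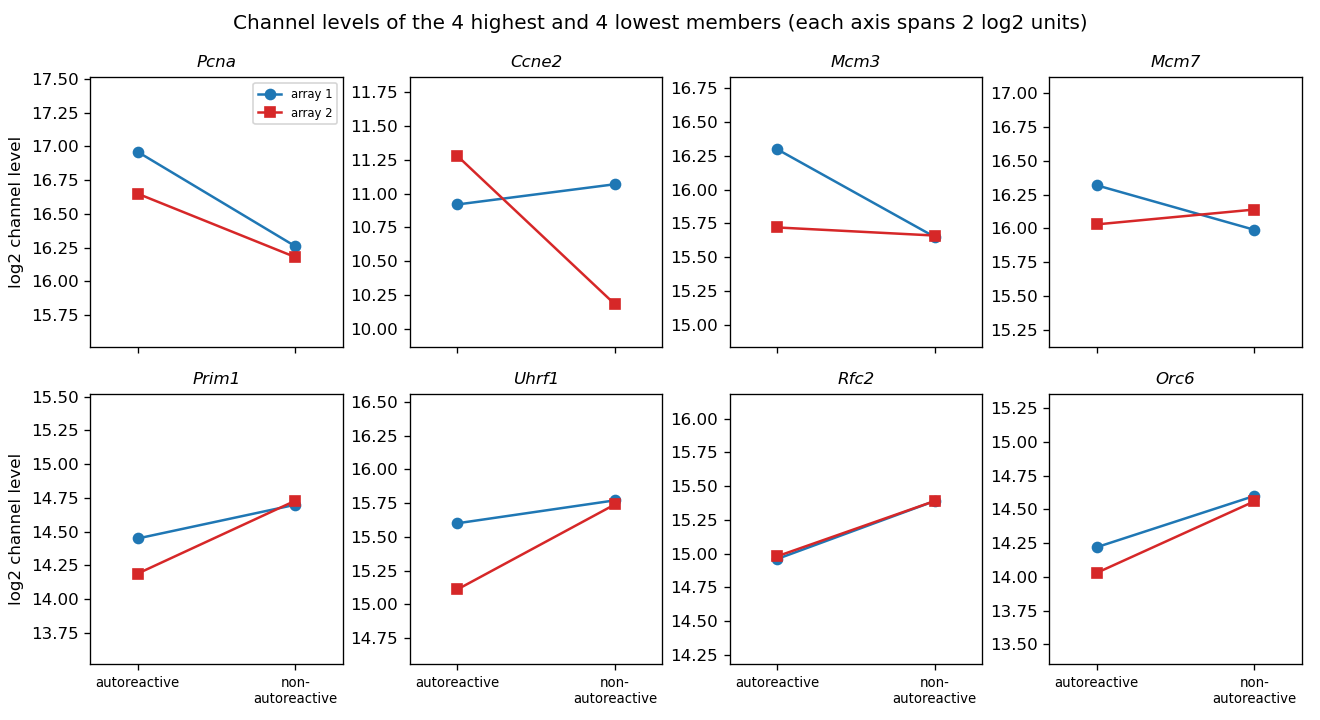
Log2 channel levels after loess of the 4 genes with the highest and the 4 with the lowest ratio, autoreactive left and non-autoreactive right, with 1 line per array and axes of equal span. The lines of Pcna fall to the right on both arrays, those of Orc6, Rfc2, Prim1 and Uhrf1 climb on both, and those of Ccne2 and Mcm7 run in opposite directions.

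The 3 subunits of replication protein A, which coats single-stranded DNA, had a median of -0.19. Rpa1 gave -0.21 on array 1 and -0.36 on array 2. Rpa2 gave -0.18 and -0.19 on its brightest probe, and -0.01 and -0.03 on the other. Rpa3 had opposite signs, -0.16 on array 1 and 0.31 on array 2.

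Of the polymerase and primase genes, 3 of 7 stood below 0 on both arrays (42.9%, against 35.4% of all genes). None stood above 0 on both, against 36.1% of all genes. Prim1, the catalytic primase subunit that makes the RNA primer, had levels of 14.45 and 14.19 in autoreactive cells, against 14.70 and 14.73 in non-autoreactive cells. The groups did not overlap, with ratios of -0.25 and -0.54 and a mean of -0.39 ± 0.14 (limma adjusted p = 0.16). Prim2, the other primase subunit, stood at -0.01 and 0.06. Pola1, the catalytic subunit of the polymerase that extends the primer, gave -0.30 on array 1 and -0.39 on array 2. Pole, the catalytic subunit of the leading-strand polymerase, gave -0.26 and -0.50, while its partner Pole2 gave -0.01 and 0.10. Pold1, catalytic subunit of the lagging-strand polymerase, gave 0.06 and -0.23, and -0.06 and -0.54 on its other probe. Its accessory subunit Pold2 gave 0.12 and -0.03.

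All 4 genes of deoxynucleotide supply stood below 0 on both arrays, as 56.1% of the 41 and 35.4% of all genes did. Their median was -0.32. Tyms, which makes thymidylate, gave -0.39 on array 1 and -0.38 on array 2 on its brightest probe, and -0.43 and -0.47 on the other tested one. The 2 probes had limma adjusted p of 0.139 and 0.0994. Rrm1 and Rrm2 are the large and small subunits of ribonucleotide reductase. Rrm1 stood at -0.08 on array 1 and -0.48 on array 2, and Rrm2 at -0.20 and -0.52. Tk1, the thymidine salvage kinase, stood at -0.06 and -0.23. Both genes that finish Okazaki fragments also stood below 0 on both arrays: the flap nuclease gene Fen1 at -0.07 and -0.23, and the ligase gene Lig1 at -0.12 and -0.40.

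The regulators of S phase entry held the gene with the widest gap between the arrays. Ccne2, a cyclin E, had levels of 10.92 and 11.28 in autoreactive cells, against 11.07 and 10.18 in non-autoreactive cells. The autoreactive channel was the lower on array 1 and the higher on array 2, with ratios of -0.15 and 1.11. Its other probe gave -0.13 and 0.99, so both probes showed the same gap. The mean of the brightest was 0.48 ± 0.28 (limma adjusted p = 0.355). The other cyclin E gene, Ccne1, stood at -0.18 and -0.34, and its second probe at -0.22 and -0.23.

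E2f1 encodes an E2F factor that switches on many of the genes above. Its brightest probe gave 0.07 on array 1 and -0.22 on array 2. Its other probe, spotted 10 times per array, gave -0.27 (SD 0.0432 over 9 spots used) and -0.72 (SD 0.0335 over 8 spots used), a mean of -0.50 ± 0.15 (limma adjusted p = 0.13). Both probes had the lower ratio on array 2, and they differed by 0.42 in their means.

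The 3 genes that copy chromatin marks and nucleosomes onto new DNA had a median of -0.32. Uhrf1, which carries DNA methylation to the new strand, had levels of 15.60 and 15.11 in autoreactive cells, against 15.77 and 15.74 in non-autoreactive cells. Its ratios were -0.16 and -0.63, with a mean of -0.40 ± 0.15 (limma adjusted p = 0.2), and its other probe gave -0.12 and -0.84. Chaf1a and Chaf1b are subunits of the histone chaperone that assembles nucleosomes behind the fork. Chaf1a stood at -0.12 on array 1 and -0.52 on array 2, and Chaf1b at -0.14 and -0.04.

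Of the 41 genes, 11 had several tested probes. Their probe means stood on the same side of 0 in 10, with Mcm3 as the exception, and differed by a median of 0.16 on the log2 scale. The difference exceeded 0.5 in Mcm3 alone (0.63), and it was 0.31 there after each probe was set against probes of like brightness.

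After loess, the ratio still moved with brightness among the brightest probes. The median of all tested probes lay between -0.06 and 0.03 on each array up to a mean log2 brightness of 15. It was 0.16 on array 1 and 0.10 on array 2 for brightness 15 to 16, and 0.73 and 0.67 above 16. With the deposited ratios these medians were -0.04 and -0.07 for 15 to 16, and 0.30 and 0.26 above 16. The 11 replication probes between 15 and 16 had medians of 0.02 and -0.40, and the 2 above 16, those of Pcna and Mcm7, had medians of 0.52 and 0.18. In both ranges and on both arrays these medians stood below those of all probes. Each probe was therefore also set against the 500 tested probes nearest to it in brightness on the same array. On that scale 29 of the 41 genes lay below their neighbours on both arrays (70.7%, against 36.1% of all genes tested), and 5 lay above on both (12.2%, against 35.0%). The median difference was -0.13 on array 1 and -0.30 on array 2. Mcm7 lay 0.14 and 0.50 below its neighbours, while its plain ratio on array 1 was above 0. Of the licensing genes, 8 of 10 lay below their neighbours on both arrays. Uhrf1 had the largest shortfall of the 41, at -0.41 and -0.72, and Ccne2 the largest excess, at -0.18 and 1.13.

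**Figure D3:**
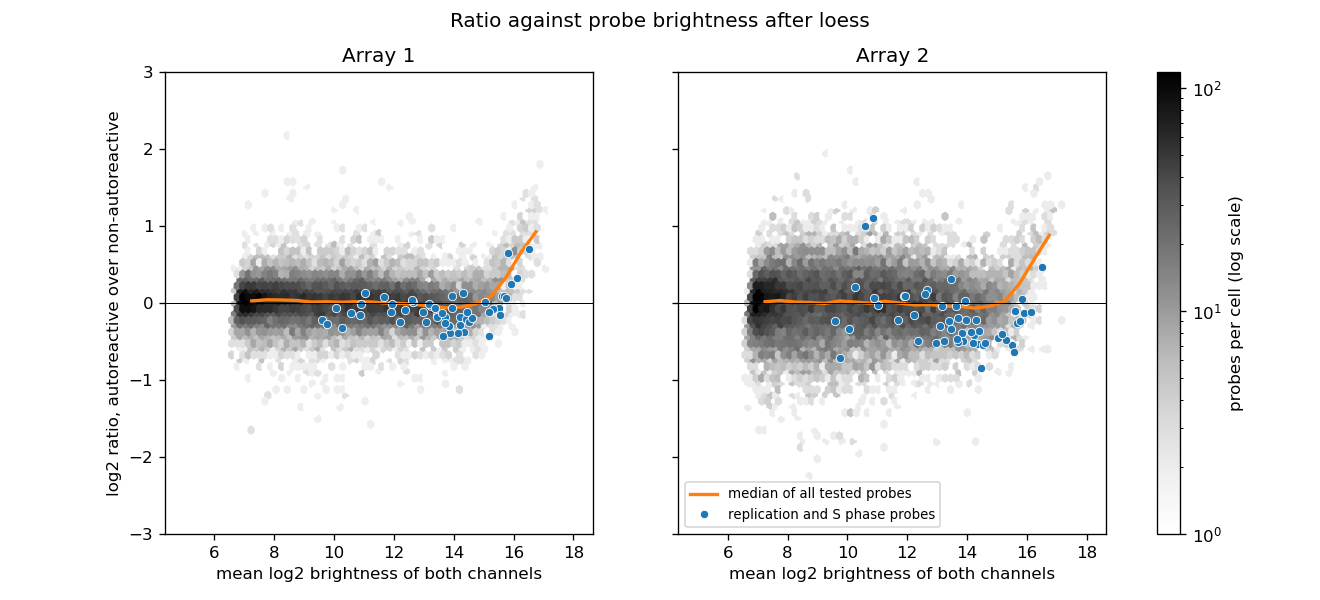
Log2 ratio of autoreactive over non-autoreactive cells against mean log2 brightness for the 22613 tested probes (grey density) on each array, with the median of all probes (line) and the 52 replication and S phase probes (dots). The line lies near 0 and turns up among the brightest probes, where the dots mostly lie under it. The axis ends at -3 and 3, beyond which lie 15 probes on array 1 and 22 on array 2.

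The difference between the arrays ran through most roles. The ratio was lower on array 2 than on array 1 in 31 of the 41 genes (75.6%, against 52.1% of all genes). Across the 41 genes, which share both arrays and are not independent, the ratios of the 2 arrays had r = 0.443 and rho = 0.581. Over all 15102 genes these were 0.711 and 0.611. The ratios of the 41 genes were less spread (SD 0.238 and 0.329, against 0.357 and 0.5 for all genes). A narrower spread can by itself lower r.

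Markers of other cells were read beside the replication genes. For comparison with the counts below, 3.52% of all genes tested were called higher and 2.62% lower. On both arrays, 36.1% of all genes stood above 0 and 35.4% below. Plasmacytoid dendritic cells carry B220, while most T, NK and myeloid cells lack it or carry CD43, so the stains could remove most of them. Markers of all of these had lower median ratios on array 2, and erythroid markers did not. The 5 B lineage markers were well above background in both channels on both arrays, with medians of -0.19 and 0.16. Of these, 1 was called, the transcription factor gene Pax5, which fell (-1.05 ± 0.17, limma adjusted p = 0.0245). Its other probe gave -0.60 and -0.20 (limma adjusted p = 0.176) and was not called. The receptor signalling gene Cd79b gave 0.49 and 0.89 (limma adjusted p = 0.0549), and -0.01 and 0.42 against probes of like brightness. The summed B lineage levels were 180000 and 214000 in autoreactive cells, against 151000 and 169000 in non-autoreactive cells. This sum is weighted to Cd79b, the brightest of the 5, with log2 levels of 17.03 and 17.21, against 16.54 and 16.32. Of the 5 markers, 2 stood above 0 on both arrays and 2 stood below 0 on both. Of 8 plasmacytoid dendritic cell markers, all stood below 0 on both arrays and 2 (Ly6d and Cox6a2) were called lower, and the array medians were -0.80 and -1.87. Their summed levels were 89500 and 85000 in autoreactive cells, against 140000 and 162000 in non-autoreactive cells. This sum is weighted to Irf8 (log2 levels 15.65 and 15.52, against 15.78 and 16.11) and Ly6d (14.32 and 14.52, against 15.80 and 15.68). Siglech was dim, at 8.37 and 6.91 against 9.24 and 9.68. Which cells these transcripts came from was not tested. The 9 T and NK markers had medians of -0.04 and -1.06, and their summed levels were 9060 and 3950 in autoreactive cells, against 8890 and 9950 in non-autoreactive cells. Of these, Cd3g and Cd8a were not well above background in autoreactive cells. The 10 myeloid markers had medians of 0.08 and -0.72, with 1 (Ltf) called lower, and summed to 522000 and 459000 in autoreactive cells, against 432000 and 597000 in non-autoreactive cells. The other Ltf probe gave -0.25 and -1.26 and was not called. In every channel the sum of these 10 markers was above that of the 5 B lineage markers, but the lists differ in size. The myeloid sum is weighted to S100a9 (log2 levels 17.62 and 17.20, against 16.92 and 17.34) and Lyz2 (16.67 and 16.57, against 16.07 and 16.67). Such sums do not measure the share of a cell type. How many myeloid cells passed the sort was not tested. Of 8 erythroid markers, 7 were tested and 2 (Hemgn and Slc4a1) were called lower. The other Hemgn probe gave -0.27 and -0.56 and was not called. The 7 had medians of -0.52 and -0.49, and they summed to 25500 and 20500 in autoreactive cells, against 37600 and 31200 in non-autoreactive cells. All tested plasmacytoid, myeloid and erythroid markers, and 7 of the 9 T and NK markers, were well above background in both channels. The part of these cells in the replication ratios was not tested.

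A list of 5 early B cell genes, chosen as markers of large cycling pre-B cells, had a median ratio of -1.04. Of these, 3 fell and 1 rose, against 2.62% and 3.52% of all genes. Whether the list reads large pre-B cells alone was not tested. Vpreb1 (-1.74 ± 0.15), Igll1 (-1.45 ± 0.17) and Vpreb2 (-1.04 ± 0.12), which form the surrogate light chain of the pre-B receptor, fell, with limma adjusted p of 0.00518, 0.0095 and 0.0101. Il7r, a cytokine receptor chain of early B cells, rose (0.68 ± 0.14, limma adjusted p = 0.0467). Dntt, the polymerase of junctional nucleotides, gave -0.33 and -1.64 and was not called. All 5 were well above background in both channels, and their summed levels were 44500 and 33300 in autoreactive cells, against 91000 and 76000 in non-autoreactive cells. Summed levels of the 41 replication genes were 1080000 and 859000 in autoreactive cells, against 1030000 and 987000 in non-autoreactive cells. A sum is weighted to the brightest probes, and the median ratio of the 41 genes on array 1 was -0.10. The part of large pre-B cells in the replication ratios was not tested.

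Another 53 replication genes, among them the other origin complex and polymerase subunits, nucleotide enzymes and histone chaperones, were all tested. Of these, 1 rose and none fell, against 3.52% and 2.62% of all genes, and the median was -0.11. At an unadjusted p under 0.05, 4 of the 53 had a ratio above 0 and 4 one below 0, against 12% and 12.3% of all genes. The gene that rose was Asf1a, a histone chaperone, with levels of 14.84 and 15.09 in autoreactive cells, against 14.23 and 14.14 in non-autoreactive cells (log2 ratio 0.79 ± 0.14, limma adjusted p = 0.033). Its other probe gave 0.40 and was not called, and the call was lost with the deposited ratios, with no filter on dim probes, with the mean over probes and with separate channels. The lowest were E2f8, a repressive E2F (-0.25 and -0.89, with 0.41 as the mean of its other probe), and Ccna2, the S phase cyclin A, at -0.07 and -0.88.

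Of 21 genes that gate entry into S phase, 20 were tested, all but Cdkn2a. Of these, 2 rose and none fell, against 3.52% and 2.62% of all genes. The median was -0.26, with 3 ratios above 0 and 9 below 0 at an unadjusted p under 0.05 (12% and 12.3% of all genes). Tfdp2, a dimer partner of E2F factors, gave 0.80 and 1.09 (0.95 ± 0.13, limma adjusted p = 0.0175), and its other probes 0.73 and 1.16. Cdkn1b, the inhibitor p27 that holds cyclin E with its kinase in check, gave 0.68 and 0.61 (0.64 ± 0.12, limma adjusted p = 0.0399), and its other probes 0.36 and -0.35. With separate channels neither was called, and 1 of the 2 calls was lost with normexp offset 16, the deposited ratios, no filter on dim probes and the mean over probes. The lowest were Cdk6, a kinase of G1, at -0.15 and -1.52 (its other probes -0.17 and -0.19), and Ccnd1, a cyclin D, at -0.11 and -1.16. Ccnd1 was well above background in autoreactive cells on 1 of the 2 arrays, so its ratio is limited by a dim channel.

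Genes of G2 and mitosis had a lower median than the replication genes and the same order of arrays. Of 30 listed, 29 were tested, all but Hmmr. The median was -0.15 on array 1 and -0.53 on array 2, and 26 of the 29 had the lower ratio on array 2 (89.7%, against 52.1% of all genes). At an unadjusted p under 0.05, 11 of the 29 had a ratio below 0 and 0 one above, against 12.3% and 12% of all genes. Of all genes, limma called 2.62% lower and 3.52% higher, and of these 29 it called 1 gene lower and none higher. It was Nek2, a kinase of the spindle pole, with levels of 13.19 and 12.86 in autoreactive cells, against 13.80 and 13.79 in non-autoreactive cells (-0.77 ± 0.14, limma adjusted p = 0.0332). Its call was lost with the deposited ratios, with median centring, with no filter on dim probes and with separate channels. Top2a, the topoisomerase that untangles daughter strands, gave -0.32 and -1.06 (limma adjusted p = 0.106). The highest were Ccnb2, a cyclin B, at 0.35 and -0.06, and Cenpa, the centromere histone gene, at 0.13 and 0.15. Against probes of like brightness Ccnb2 stood at -0.14 and -0.43, and Cenpa at 0.19 and 0.20. The difference between the medians of these lists was not tested.

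The normalization decided whether the replication genes stood above or below other genes. Median centring makes no correction for probe brightness, and the replication probes were brighter than most. None of them had a mean log2 brightness of 9 or less, against 8198 of the 22613 tested probes. With median centring the replication genes and all genes are therefore not matched for brightness. With the deposited ratios their median was -0.24, against -0.0036 over all genes, and with ratios set against probes of like brightness it was -0.23, against -0.0054. With each array centred on the median of probes above background, and no loess, it was 0.23, against 0.05 over all genes. Then 9 of the 41 were called higher (Pcna, Mcm2, Mcm3, Mcm4, Mcm5, Mcm6, Mcm7, Pold1 and Rfc4), as were 18.5% of all genes. Centring on all gene spots shifted the median of all genes to 0.58 and that of the replication genes to 0.77, and it called 40 of the 41 higher, as it did 65.7% of all genes.

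**Figure D4:**
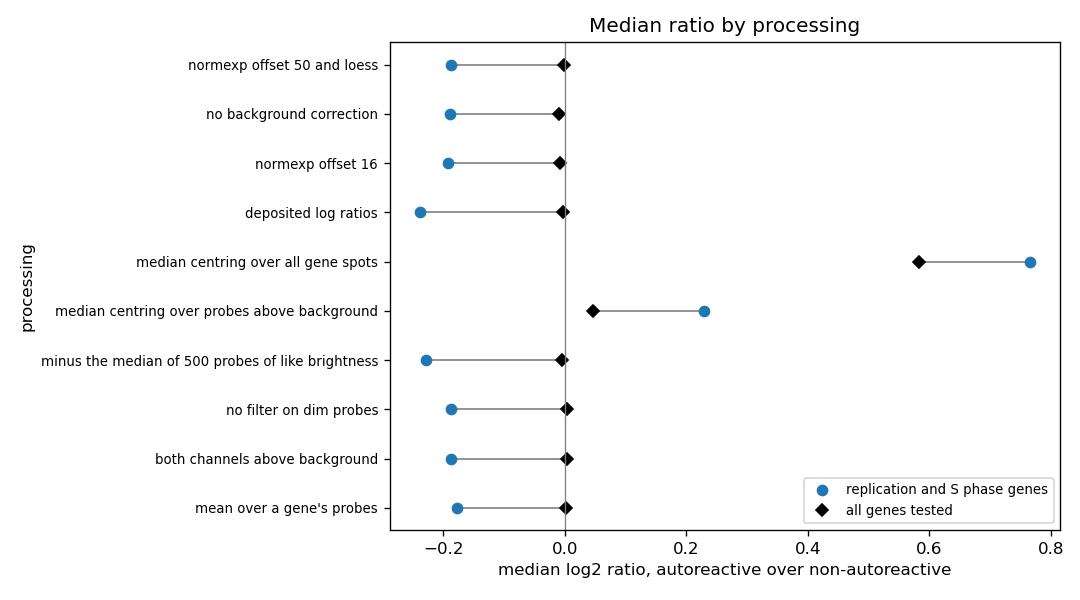
Median log2 ratio of autoreactive over non-autoreactive cells for the 41 replication and S phase genes (dots) and for all genes tested (diamonds) under each way of processing. The dots lie to the left of the diamonds with loess and with the deposited ratios, and to their right with both median centrings.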

How the data were processed

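Sorted immature B cells were measured on 2 Agilent two-colour arrays, autoreactive cells in Cy5 and non-autoreactive cells in Cy3. For each spot and channel the deposited scanner files hold a mean intensity and a median intensity of the local background, read out by Agilent Feature Extraction (version 9.5.1.1 per the file headers). The same program made the deposited log10 ratios (red over green, after background subtraction and dye normalization, per the file headers). The deposited table of the series equals them to within 5e-10.

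Background was corrected with normexp at an offset of 50, and each array was normalized by loess (limma 3.58.1 in R 4.3.3). Control spots and the 274 and 306 outlier spots had no weight. Spots of a probe were averaged. Of 41174 probes, 22613 had a channel well above background on both arrays, and limma tested their ratios against 0 (lmFit and eBayes, two-sided, Benjamini-Hochberg, 1 residual and 5.10 prior degrees of freedom). A gene is its brightest tested probe. A RefSeq table named the probes, 22951 of them by main accession. The procedure was tested on simulated data.

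The genes, lists and roles were chosen with earlier results of these data known. Genes given with full values are the 4 highest and 4 lowest, any called, and any whose probes disagree in sign or by more than 0.5. In other lists, they are those called and the 2 highest and 2 lowest. Alternatives changed the background correction, the normalization (deposited ratios, median centring, neighbours in brightness), the filter on dim probes, the summary over probes, the variance model and the pairing of channels, or left out 1 array. Hbb-b1 was not analysed here. Another gene that this rule names is not reported here.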

Additional observations from a re-analysis of the deposited data

How the results depend on the processing

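Of the results that answer a comparison, 106 values under alternatives stayed within the limits set for no change and 34 moved. For a median the limit was the SD of its values on the 2 arrays, so leaving out 1 array could hardly pass it. The G2 and M median of -0.53 without array 1 thus counted as unchanged. A trended variance and separate channels leave the medians the same by construction. Centring on all gene spots gave medians of 0.77 (replication and S phase), 0.69 (other replication), 0.56 (G1 to S) and 0.64 (G2 and M), with 40, 49, 14 and 26 called higher, against a median of 0.58 over all genes. Centring on probes above background gave medians of 0.23, 0.16, 0.026 and 0.10 in the same order, with 9, 17, 3 and 9 called higher and 1 G1 to S gene called lower. Both centrings left 0 G2 and M genes called lower. They turned the sign of Prim1 (0.68 and 0.15), Uhrf1 (0.84 and 0.31), Rfc2 (0.76 and 0.23) and Orc6 (0.60 and 0.060). The log2 ratio of Mcm7 was -0.26 with the deposited ratios and -0.32 against probes of like brightness. Across single arrays, the ratio of Mcm7 ran from -0.12 to 0.33 and that of Ccne2 from -0.15 to 1.11, and the median of the 41 genes from -0.23 to -0.10. The count of other replication genes called higher was 0 with the deposited ratios, no filter, the mean over probes and separate channels. That of G1 to S genes called higher was 1 with offset 16, the deposited ratios, no filter and the mean over probes, and 0 with separate channels. The count of G2 and M genes called lower was 0 with the deposited ratios, no filter and separate channels, and 2 against probes of like brightness, with both channels above background, with the mean over probes and with a trended variance. Of all genes, 531 were called higher and 396 lower, against 300 and 311 with the deposited ratios, 379 and 244 with no filter, 112 and 75 with separate channels, 9924 and 375 with centring on all spots, and 2789 and 2504 with centring on probes above background. The cause of these changes was not tested. The fit of separate channels, with no replicate block by array, called 0 of the 41 genes. No slide or scan could serve as a block, since both arrays shared them. Values from 1 array have no test.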
